A study of Mus musculus with 8 samples.

Results

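The genes described here are 10 immediate early genes of neuronal activity, Fos, Fosb, Junb, Egr1, Egr2, Egr3, Npas4, Nr4a1, Ier2 and Arc. They were chosen by symbol from 19938 genes that have a probe set with a single gene symbol, and each of the 10 had 1 such probe set. Their levels were followed in thalamic tissue of 8 male C57BL/6 mice, an inbred laboratory strain, 6 weeks old when the experiment began, with 2 mice in each of 4 groups and an Affymetrix whole-transcript array per mouse. Acupoint mice received MPTP and were needled bilaterally at the hind limb acupuncture points GB34 and LR3. Non-acupoint mice received MPTP and were needled at the hips. MPTP mice received the toxin with no needling, and control mice received saline. MPTP, a toxin of dopaminergic neurons that gives a parkinsonian state in mice, was injected into the abdomen at 20 mg/kg every 24 hr for 4 weeks. Needling took place in 14 sessions 48 hr apart, each after an injection, with the mouse held by hand. The labels give neither the interval from the last injection or session to tissue collection nor whether unneedled mice were held, so needling and holding cannot be told apart here.

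Immediate early genes are transcribed soon after a neuron is depolarised, without the need for new protein. Calcium entry and MAP kinase signalling act on factors already bound at their promoters, CREB at the cAMP response element (CRE) and SRF with its ternary complex partners at the serum response element (SRE). Most of these genes encode transcription factors, and their mRNA is short-lived, so their level in tissue reports activity shortly before collection. In the thalamus they are used to mark relay nuclei that respond to sensory stimulation.

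Promoter windows from RefSeq (build GRCm38.p6, 250 bases before to 50 bases after each start) were matched by symbol for 6 of the 10 genes, Fos, Fosb, Junb, Egr2, Npas4 and Nr4a1, and Egr1, Egr3, Arc and Ier2 had no match. The 4 windows below are shown because Fos had the smallest p of the 10 genes, and because Npas4, Nr4a1 and Junb were the genes with a matched window that set MPTP mouse 1 and non-acupoint mouse 1 apart from the other mice. Capitals mark matches, on either strand, to TGACGT (the start of the CRE), TATAAA or the EGR site GCGNGGGCG.
Fos, chr12:85473640-85473939, plus strand: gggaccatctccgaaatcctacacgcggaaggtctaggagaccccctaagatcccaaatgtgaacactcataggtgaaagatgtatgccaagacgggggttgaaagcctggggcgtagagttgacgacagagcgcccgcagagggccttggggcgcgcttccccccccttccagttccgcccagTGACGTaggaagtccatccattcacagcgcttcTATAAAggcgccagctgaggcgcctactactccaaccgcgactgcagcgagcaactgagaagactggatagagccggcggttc
Npas4, chr19:4989922-4990221, minus strand: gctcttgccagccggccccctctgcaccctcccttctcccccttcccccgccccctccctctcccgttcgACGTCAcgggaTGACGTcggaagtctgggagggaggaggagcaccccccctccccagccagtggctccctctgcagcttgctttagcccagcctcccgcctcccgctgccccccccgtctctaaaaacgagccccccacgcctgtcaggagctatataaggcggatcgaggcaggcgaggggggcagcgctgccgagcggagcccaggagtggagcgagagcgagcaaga
Nr4a1, chr15:101266596-101266895, plus strand: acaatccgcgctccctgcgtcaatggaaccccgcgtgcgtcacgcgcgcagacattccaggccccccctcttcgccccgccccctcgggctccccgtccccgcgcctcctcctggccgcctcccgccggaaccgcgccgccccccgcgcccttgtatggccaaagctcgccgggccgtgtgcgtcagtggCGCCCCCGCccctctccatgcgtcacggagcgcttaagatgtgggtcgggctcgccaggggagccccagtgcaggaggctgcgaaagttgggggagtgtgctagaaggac
Junb, chr8:84978699-84978998, minus strand: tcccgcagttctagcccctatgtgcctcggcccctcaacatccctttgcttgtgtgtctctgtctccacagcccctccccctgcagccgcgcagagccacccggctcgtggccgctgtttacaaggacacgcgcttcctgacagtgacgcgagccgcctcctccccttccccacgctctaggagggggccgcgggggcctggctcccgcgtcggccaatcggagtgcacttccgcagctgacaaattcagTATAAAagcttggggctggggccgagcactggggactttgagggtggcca
The search covered both strands of the windows of all 6 genes, 10 windows of which 5 belong to Egr2. A gene with more windows has more chances of a match, so counts of genes and shares of windows are unlike measures. TGACGT was found in 3 of the 6 genes, Fos, Npas4 (at 2 places) and Egr2, and in 7.51% of all 32851 windows in the table. The full palindrome TGACGTCA, which contains TGACGT, was found in 0 of the 6 and in 1.79% of all windows. TATAAA was found in Fos and Junb (13.6% of all windows), GCGNGGGCG in Fosb and Nr4a1 (5.55%), and the SRE core known as the CArG box in Egr2 (1.63%). These are matches of letters in a short window and describe no binding.

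The deposited values are log2 levels made by RMA, and array medians lay between 6.18 and 6.29. A probe set was tested when its mean over the 8 arrays was at least 5.63, which left out the dimmest 40%, and when it had a gene symbol. Of the 10 genes 9 were tested, and Egr2, with a mean of 5.51, was not. The arrays of non-acupoint mouse 1 and MPTP mouse 1 stood apart. They correlated at 0.982 with each other over the 15791 tested probe sets and at 0.905 to 0.936 with the other 6, which correlated at 0.981 to 0.995 among themselves. Values without these 2 arrays (6 arrays) are therefore given beside the results they touch, and then the non-acupoint and MPTP groups hold 1 mouse each, assumed to vary like the others. Defining thalamic genes were bright on all arrays, with Tcf7l2, a transcription factor of thalamic neurons, at 9.39 to 10.53 and the kinase gene Prkcd at 10.74 to 11.94. The mean of the 13 thalamic marker genes (all 13 tested, each gene relative to its own mean over the 8 arrays) was 0.37 and 0.38 in acupoint mice, 0.22 and 0.07 in non-acupoint mice, 0.13 and -0.01 in MPTP mice, and -0.65 and -0.50 in control mice. Choroid plexus genes (11 of 12 tested) stood at 0.73 and 1.29, at -1.78 and -1.71, at 1.34 and 1.29, and at -0.60 and -0.56 in the same groups. The levels of these marker genes thus differed between the groups, and their part in the results below was not tested. In such tissue samples, fewer cells of a type and less RNA per cell cannot be told apart. Each p-value below sets a difference against the spread between mice given the same treatment, pooled over the groups that hold 2 mice and moderated over all tested probe sets.

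No change of an activity gene passed the threshold. None of 45 changes, 9 genes in 5 comparisons, had an adjusted p under 0.05, and 0 had an unadjusted p under 0.05 (limma with Benjamini-Hochberg adjustment over all tested probe sets). The smallest unadjusted p was 0.0699, for Fos in MPTP against control (adjusted p = 0.714, limma). All 95% intervals lay between -1.31 and 1.40 on the log2 scale. For Fosb, Egr1, Egr3, Arc, Nr4a1 and Ier2 every interval lay between -0.66 and 0.81. From the lowest to the highest array the 10 genes spanned 0.31 (Egr1) to 1.14 (Npas4) log2 units, with a median of 0.51, where the median of all tested probe sets was 0.61. On the 6 arrays the median was 0.37 for these genes and 0.31 for all tested probe sets.

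**Figure D1:**
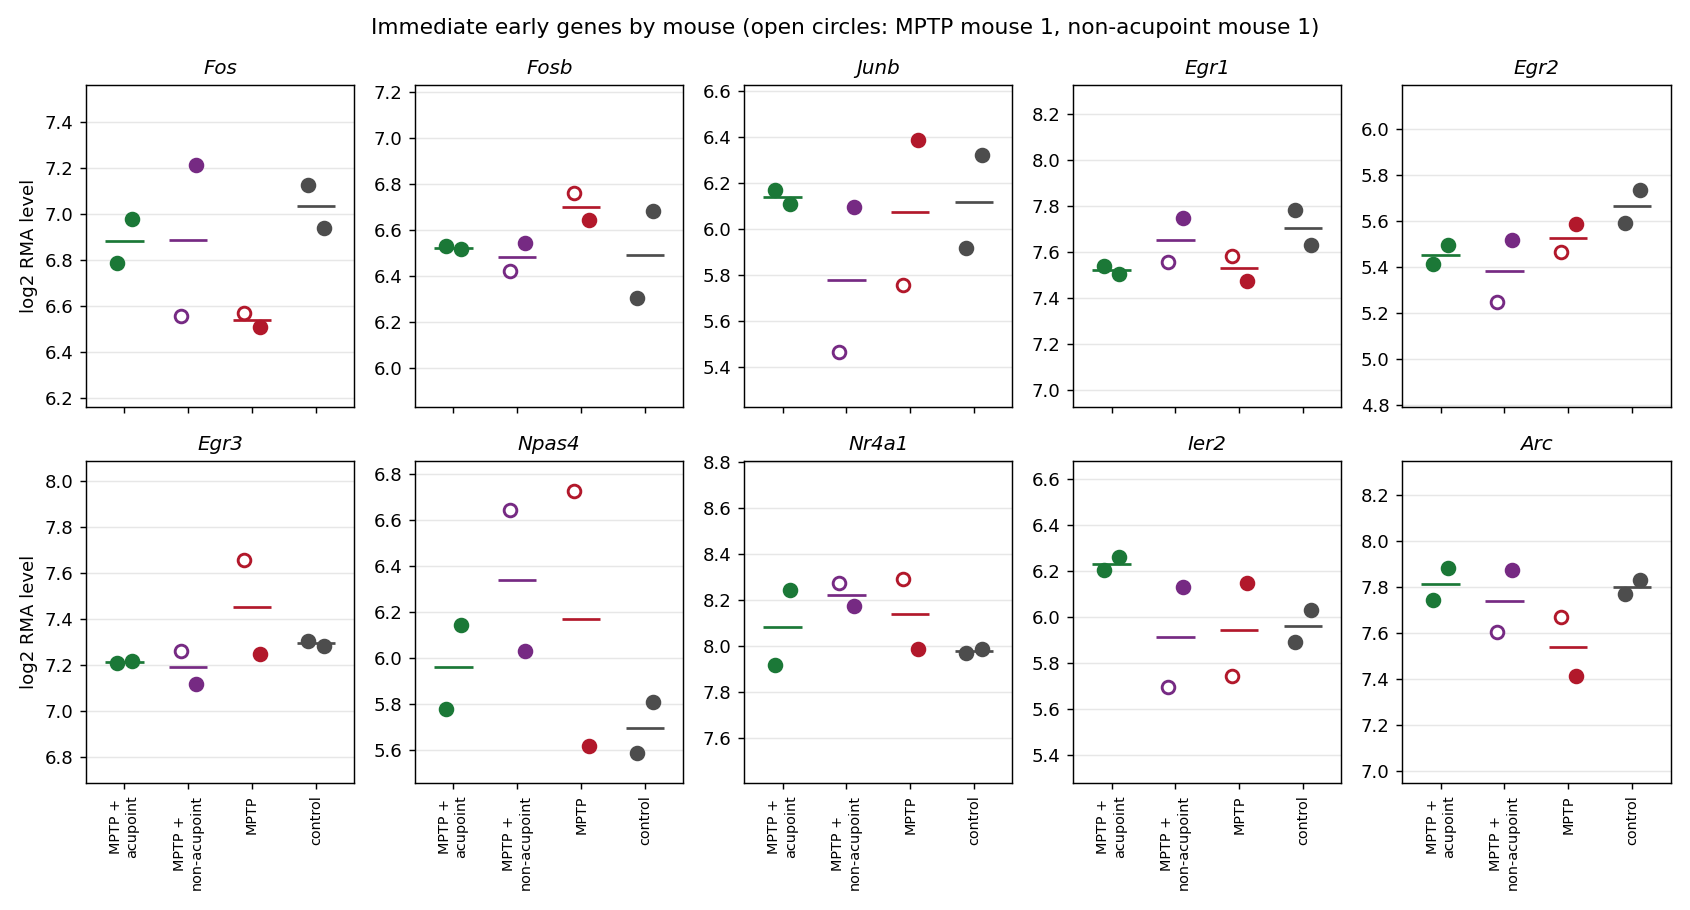
Log2 RMA level (vertical axis) of the 10 immediate early genes in each mouse (circles) of the 4 groups, with group means as lines and the same height in log2 units in every panel. Open circles are non-acupoint mouse 1 and MPTP mouse 1. Fos was at its lowest in MPTP mice and non-acupoint mouse 1, while Npas4 was highest on the 2 open-circle arrays.

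Among the AP-1 factors, Fos, the dimerisation partner of Jun proteins and the most used marker of recent neuronal activity, stood at 6.79 and 6.98 in acupoint mice 1 and 2, 6.56 and 7.21 in non-acupoint mice, 6.57 and 6.51 in MPTP mice, and 7.13 and 6.94 in control mice. Both MPTP mice lay below both control mice and both acupoint mice, and the non-acupoint mice spanned nearly the whole range. Fos averaged 6.54 ± 0.04 in MPTP mice and 7.03 ± 0.13 in control mice (SD, n = 2 each). The log2 change was -0.50 ± 0.23 (SE, 95% interval -1.04 to 0.05), a level ratio of 0.71. Against MPTP mice the change was 0.34 ± 0.23 after acupoint needling and 0.35 ± 0.23 after hip needling, and the needled groups differed by 0.00 (95% interval -0.55 to 0.55, acupoint against non-acupoint). No Fos change passed the threshold (adjusted p 0.714 to 1.00 in these 4 comparisons, limma).

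On the 6 arrays the Fos values became -0.52 in MPTP against control (95% interval -0.83 to -0.22, adjusted p = 0.148, limma) and 0.37 in acupoint against MPTP (0.07 to 0.68, adjusted p = 0.284, limma). Both rest on MPTP mouse 2 alone and did not pass, as 0.361% and 0.0190% of all tested probe sets did in these comparisons. Between the remaining non-acupoint mouse and MPTP mouse the difference was 0.71, and the acupoint mice lay 0.33 below that non-acupoint mouse. Fos thus differed between the hip-needled mice, with non-acupoint mouse 1 near the MPTP mice and non-acupoint mouse 2 above every other mouse. Non-acupoint mouse 1 is on an array that stood apart, so mouse and array cannot be told apart here.

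Fosb encodes an AP-1 factor whose truncated form, ΔFosB, is stable and builds up under repeated stimulation, and its single probe set was read as one level for the gene. It stood at 6.53 and 6.52 in acupoint mice, 6.42 and 6.54 in non-acupoint mice, 6.76 and 6.64 in MPTP mice, and 6.30 and 6.68 in control mice. Both needled groups lay below both MPTP mice, by 0.18 ± 0.16 in size for acupoint needling and 0.22 ± 0.16 for hip needling (SE), while the 2 control mice lay 0.38 log2 units apart and spanned most of the other values. Junb, an AP-1 partner of Fos proteins, stood at 6.17 and 6.11 in acupoint mice, 5.46 and 6.09 in non-acupoint mice, 5.75 and 6.39 in MPTP mice, and 5.91 and 6.32 in control mice. The 2 lowest values were those of non-acupoint mouse 1 and MPTP mouse 1, and the largest group difference, 0.36 ± 0.30 (SE) in acupoint against non-acupoint mice, was 0.04 on the 6 arrays.

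The EGR genes encode zinc finger factors that bind GC-rich sites. Egr1, which has sizeable resting expression in brain, stood at 7.54 and 7.51 in acupoint mice, 7.56 and 7.75 in non-acupoint mice, 7.59 and 7.48 in MPTP mice, and 7.78 and 7.63 in control mice. Both acupoint and both MPTP mice lay below both control mice. The change in MPTP against control was -0.18 ± 0.14 (SE) and did not pass the threshold. Egr3 stood at 7.21 and 7.21 in acupoint mice, 7.26 and 7.12 in non-acupoint mice, 7.66 and 7.25 in MPTP mice, and 7.30 and 7.28 in control mice. It was nearly level on 7 arrays, and MPTP mouse 1 alone stood above them. The change in MPTP against control was 0.16 ± 0.17 (SE) over 8 arrays and -0.05 over 6.

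Egr2, the dim one of the 10 genes, stood at 5.41 and 5.49 in acupoint mice, 5.25 and 5.52 in non-acupoint mice, 5.46 and 5.59 in MPTP mice, and 5.59 and 5.73 in control mice. All 6 injected mice lay below both control mice, the closest pair being MPTP mouse 2 at 5.588 and control mouse 1 at 5.592. Of all tested probe sets, which do not include Egr2, 9.66% did so. When all named probe sets were fitted with no brightness filter, the difference of the 3 injected groups from control was -0.21 ± 0.12 (SE, adjusted p = 0.659, limma). At this brightness differences are compressed.

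Npas4, a factor induced by calcium entry in neurons that regulates genes of inhibitory synapses, had the widest range. It stood at 5.78 and 6.14 in acupoint mice, 6.65 and 6.03 in non-acupoint mice, 6.73 and 5.62 in MPTP mice, and 5.59 and 5.81 in control mice. The 2 high values were those of MPTP mouse 1 and non-acupoint mouse 1, and the MPTP mice alone spanned 5.62 to 6.73. The change in MPTP against control was 0.47 ± 0.39 (SE, 95% interval -0.46 to 1.40) over 8 arrays and -0.08 (95% interval -0.50 to 0.34) over 6. Nr4a1, an orphan nuclear receptor gene, stood at 7.92 and 8.25 in acupoint mice, 8.28 and 8.17 in non-acupoint mice, 8.29 and 7.99 in MPTP mice, and 7.97 and 7.99 in control mice. Its 2 highest values were again those of MPTP mouse 1 and non-acupoint mouse 1, followed closely by acupoint mouse 2.

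Ier2, a nuclear early response gene, stood at 6.21 and 6.26 in acupoint mice, 5.70 and 6.13 in non-acupoint mice, 5.74 and 6.15 in MPTP mice, and 5.89 and 6.03 in control mice. Acupoint mice lay above all other mice, and 13.8% and 14.5% of all tested probe sets were wholly higher against non-acupoint and MPTP mice. The Ier2 differences were 0.32 ± 0.21 (SE) against non-acupoint and 0.29 ± 0.21 against MPTP mice. On the 6 arrays these differences were 0.10 and 0.09, against 1 mouse each, and no Ier2 change passed the threshold. Arc encodes a synaptic protein that assists removal of AMPA receptors. It is the only one of the 10 genes that acts at the synapse and not in transcription. Arc stood at 7.74 and 7.88 in acupoint mice, 7.60 and 7.87 in non-acupoint mice, 7.67 and 7.41 in MPTP mice, and 7.77 and 7.83 in control mice.

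Both MPTP mice lay below both control and both acupoint mice in Arc, as they did in Fos. The Arc change was -0.26 ± 0.16 (SE, 95% interval -0.64 to 0.12) in MPTP against control and 0.27 ± 0.16 (95% interval -0.11 to 0.66) in acupoint against MPTP. On the 6 arrays these were -0.39 (95% interval -0.63 to -0.15) and 0.40 (0.16 to 0.64), both against MPTP mouse 2 alone, with adjusted p of 0.163 and 0.241 (limma). In non-acupoint against MPTP the Arc change was 0.20 ± 0.16 (SE) over all arrays, where the groups overlapped. On the 6 arrays it was 0.46, between the remaining mouse of each group. In acupoint against non-acupoint the Arc change was 0.07 ± 0.16 (SE) over all arrays and -0.06 on the 6 arrays. The Arc difference from MPTP mice was thus not particular to acupoint needling on the 6 arrays. The comparisons with MPTP mice share those mice, so a low MPTP value enters each of them.

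The deviations of each gene from its own mean showed no array on which all 10 genes were high or low. On MPTP mouse 1, Npas4 (0.68), Egr3 (0.37), Fosb (0.21) and Nr4a1 (0.18) were above their means while Junb (-0.27), Ier2 (-0.27) and Fos (-0.27) were below. On non-acupoint mouse 1, Npas4 (0.60) and Nr4a1 (0.17) were above and Junb (-0.56), Ier2 (-0.32) and Fos (-0.28) below. On both of these arrays Npas4 and Nr4a1 exceeded all 6 others, as 28.3% of all tested probe sets did, and Junb and Ier2 lay under all 6 others, as 29.2% did. Counts of 2 of 9 genes each way are near these shares.

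Cytosolic ribosome genes (15 of 21 tested) stood at -0.44 and -0.55 on non-acupoint mouse 1 and MPTP mouse 1, against 0.08 to 0.23 on the other 6 arrays. Mitochondrial complex I genes (26 of 27 tested) stood at -0.48 and -0.46, against 0.11 to 0.22. Not every gene of these 2 lists followed. Ndufa6 (9.54 and 9.72, against at most 9.32) and Ndufs1 (10.60 and 10.74, against at most 10.53) were highest on these arrays. The ribosomal gene Rpl19 was highest on non-acupoint mouse 1 (11.45). The mean of cortical marker genes (7 of 12 tested) was highest on MPTP mouse 1, at 0.45 against at most 0.10 on the other 7. That of striatal ones (9 of 12 tested) was also highest there, at 1.15 against at most 0.24. Of the cortical genes Lamp5, Nrgn and Fezf2 were highest there, but Rasgrf2, Cux2 and Slc17a7 were not. The cortical list also holds the early gene Egr4, which was at its lowest there (6.00). Of the striatal genes Gpr6 and Syndig1l were not highest there. The part of these list differences in the levels of Npas4, Nr4a1, Egr3, Junb and Ier2 was not tested.

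**Figure D2:**
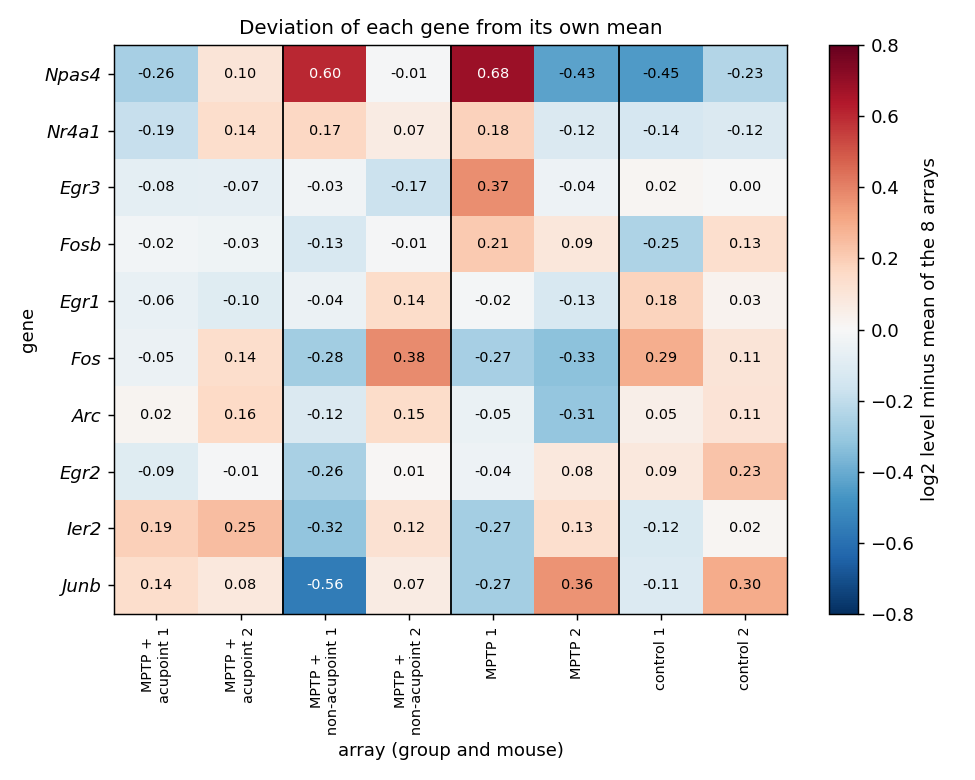
Log2 level of each gene (rows) minus its mean over the 8 arrays, for each mouse (columns). Npas4 was raised on MPTP 1 and non-acupoint 1 (0.68 and 0.60), where Junb and Ier2 were low, and no column had a single sign throughout.

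Read by comparison, the 9 tested genes moved both ways. In MPTP against control mice 3 of the 9 lay wholly lower (Fos, Egr1 and Arc, where 20.4% of all tested probe sets did so) and 0 wholly higher (18.2%). The median log2 change of the 9 was -0.02, the same as the -0.02 of all tested probe sets. In acupoint against MPTP mice 3 lay wholly higher (Fos, Ier2 and Arc, background 14.5%) and 2 wholly lower (Fosb and Egr3, background 12.5%), with a median of -0.01 against 0.01 for all tested probe sets. In non-acupoint against MPTP mice 1 lay wholly lower (Fosb, background 6.74%) and 0 higher (5.67%), with a median of 0.09 against 0.01.

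In acupoint against non-acupoint mice 2 lay wholly higher (Junb and Ier2, background 13.8%) and 1 wholly lower (Egr1, background 18.0%), with a median of 0.02 against 0.01. In the 3 injected groups against control 0 of 9 separated in either direction (10.3% of tested probe sets higher, 9.66% lower). The median was -0.01, as over all tested probe sets. Egr2, which is not among the 9, lay wholly lower there. The share of probe sets past an adjusted p of 0.05 was 0.0443% in non-acupoint against MPTP and 0% in the other 4 comparisons. At an unadjusted p under 0.05 it was 5.29% in MPTP against control, 1.37% in acupoint against MPTP, 1.56% in non-acupoint against MPTP, 1.89% in acupoint against non-acupoint and 7.07% in injected against control, with 0 of the 9 genes in each. Because acupoint and non-acupoint mice were both set against the same MPTP mice, their changes are given side by side only.

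**Figure D3:**
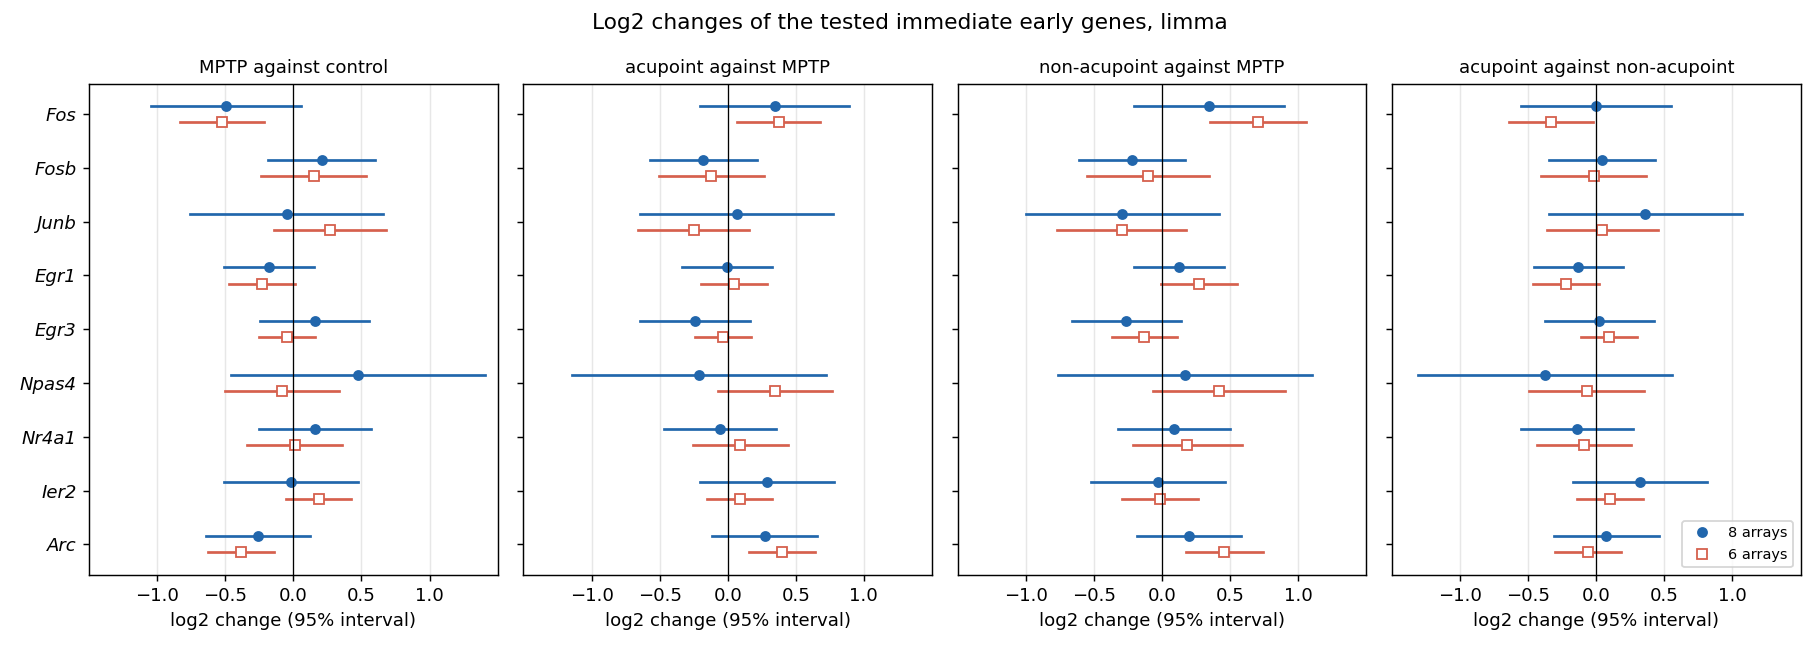
Log2 change (horizontal axis, with 95% interval) of the 9 tested genes in 4 comparisons, by limma over 8 arrays (filled circles) and over the 6 arrays without MPTP mouse 1 and non-acupoint mouse 1 (open squares). Over 8 arrays every interval includes 0, and Fos and Arc are the genes whose intervals over 6 arrays leave 0 in MPTP against control, at -0.52 and -0.39.

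The genes whose levels ran closest to the mean profile of the 9 tested genes were found among 13336 genes with at least the same range (0.17 log2 units). They were Ing3, a chromatin reader gene, Dusp5, an ERK phosphatase gene, the cell cycle inhibitor gene Cdkn1b, Anp32b and Dnajc14, with mean absolute differences of 0.026 to 0.034 over the 8 arrays. Ing3 was also the closest over the 6 arrays (0.015). The profile itself lay between -0.08 and 0.08, so that this likeness is mostly one of small variation.

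Further factors of the same early class gave 17 tested of 19 genes, and 0 passed in any of the 5 comparisons over 8 arrays (limma). In MPTP against control 9 lay wholly lower and 1 wholly higher (20.4% and 18.2% of all tested probe sets), with a median log2 change of -0.14 over 8 arrays, against -0.02 for all tested probe sets, and -0.18 over 6 arrays. In acupoint against MPTP 8 lay wholly higher and 1 wholly lower (14.5% and 12.5% of all tested probe sets), with a median of 0.21 over 8 arrays, against 0.01 for all tested probe sets, and 0.13 over 6 arrays. These comparisons share the MPTP mice, and at an unadjusted p under 0.05 they held 2 genes and 0 genes of the 17 (5.29% and 1.37% of all tested probe sets). On both MPTP mouse 1 and non-acupoint mouse 1, 9 of the 17 lay below the other 6 arrays, as 29.2% of all tested probe sets did. The genes of smallest p in MPTP against control were Fosl2, an AP-1 factor of the Fos family (-0.67 ± 0.20, SE, adjusted p = 0.714, limma), and Klf4 (-0.57). Fosl2 stood at 6.73 and 6.70 in acupoint mice, 6.29 and 6.65 in non-acupoint mice, 6.07 and 6.54 in MPTP mice, and 6.96 and 6.99 in control mice. Egr4, the fourth EGR gene, stood at 6.26 and 6.21 in acupoint mice, 6.03 and 6.08 in non-acupoint mice, 6.00 and 6.38 in MPTP mice, and 6.51 and 6.60 in control mice. All 6 injected mice were thus below both controls in Fosl2 and Egr4, and also in Klf2, named after its values were seen, 3 of 17 genes where 9.66% of all tested probe sets did so.

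For the 3 injected groups against control the changes were -0.48 ± 0.17 (SE) for Fosl2 and -0.40 ± 0.13 for Egr4 over 8 arrays, short of the threshold (adjusted p = 0.616 and 0.583, limma). Over the 6 arrays both fell by 0.34 and 0.32 on the log2 scale (adjusted p = 0.0372 and 0.0490, limma), 2 of 17 genes where 5.41% of all tested probe sets passed. The list means of dopaminergic, hypothalamic, meningeal and microglial markers were likewise lower in all 6 injected mice than in both controls. Microglial genes (10 of 11 tested) stood at -0.15 to 0.09 in injected mice and at 0.13 and 0.12 in controls. Csf1r, Itgam and C1qb, however, were higher in MPTP mouse 1 than in both controls. The mean of hippocampal genes (3 of 8 tested) was higher, at -0.15 to 0.31 in injected mice and -0.30 and -0.29 in controls. Of these genes only Prox1 was higher in every injected mouse. Calb1 was lower in MPTP mice (8.61 and 9.62) and non-acupoint mouse 1 (8.37) than in controls (9.63 and 9.67). Wfs1 was lower in MPTP mouse 2 (7.71) than in controls (7.98 and 7.96). Cortical, striatal, habenular and choroid plexus means were mixed. Single genes did not all follow their list. Hcrt stood at 9.46 in MPTP mouse 2 against 8.94 and 9.16 in controls, and Igf2 at 9.10 and 8.90 in MPTP mice against 8.47 and 8.40. Dopaminergic genes (10 of 12 tested) stood at -0.70 to 0.49 in injected mice and at 1.00 and 0.83 in controls. Drd2, however, stood at 9.41 in MPTP mouse 1 against 8.58 and 8.43 in controls. Nr4a2 stood at 7.42 in MPTP mouse 1 and 7.48 in acupoint mouse 2 against 7.33 and 7.21. Aldh1a1 and Ret overlapped between injected mice and controls. Hypothalamic genes (11 of 12 tested) stood at -0.88 to 0.35 in injected mice and at 0.58 and 0.59 in controls, and meningeal genes (9 of 11 tested) at -0.49 to 0.09 in injected mice and at 0.53 and 0.37 in controls. The part of these marker lists in the Fosl2 and Egr4 changes was not tested. In acupoint against MPTP the smallest p belonged to Jund (-0.32) and Ier5 (0.50), in non-acupoint against MPTP to Crem (0.22) and Klf4 (0.33), and in acupoint against non-acupoint to Ier5 (0.39) and Nr4a2 (0.44). None of these passed.

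Of effector genes that follow activity, 19 of 20 were tested and 0 passed in any comparison over 8 arrays (limma), with 0 to 2 a comparison at an unadjusted p under 0.05 (1.37% to 7.07% of all tested probe sets). Their median log2 change lay between -0.07 and 0.05 in the 5 comparisons, against -0.02 to 0.01 for all tested probe sets. Nptx2, which encodes a secreted pentraxin that clusters AMPA receptors, stood at 8.17 and 8.15 in acupoint mice, 7.65 and 7.66 in non-acupoint mice, 7.74 and 7.71 in MPTP mice, and 7.58 and 7.22 in control mice. Acupoint mice were above all others, by 0.51 ± 0.15 (SE) against non-acupoint and 0.44 ± 0.15 against MPTP mice (adjusted p = 0.893 and 0.889, limma). Nptx2 is named for the smallest p of the 19 genes in both comparisons, where 13.8% and 14.5% of all tested probe sets lay wholly higher. It also had the smallest p in injected against control (0.44), short of the threshold. There all 6 injected mice lay above both controls, as 10.3% of all tested probe sets did. Scg2, a secretogranin gene, ran the other way in acupoint against non-acupoint mice (-0.37 ± 0.15). The smallest p besides these belonged to the clock gene Per1 (0.69) and Rgs2 (-0.43) in MPTP against control, and to Gadd45b (-0.34) and Per1 (-0.41) in non-acupoint against MPTP.

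Upstream kinases and promoter-bound factors gave 18 tested of 23 genes, and 0 passed over 8 arrays (limma), with at most 3 a comparison at an unadjusted p under 0.05 (1.37% to 7.07% of all tested probe sets). Their median change in MPTP against control was 0.32 over 8 arrays and -0.04 over 6, and 11 of the 18 were above the other 6 arrays on both MPTP mouse 1 and non-acupoint mouse 1, as 28.3% of all tested probe sets were. Camk2a, a calcium-dependent kinase gene of excitatory neurons, stood at 10.91 and 10.85 in acupoint mice, 10.68 and 10.67 in non-acupoint mice, 10.93 and 10.63 in MPTP mice, and 10.24 and 10.22 in control mice. All 6 injected mice lay above both controls, by 0.55 ± 0.12 (SE, adjusted p = 0.301, limma) over 8 arrays. Over the 6 arrays Camk2a (0.50, adjusted p = 0.0150), Mef2a (0.63, adjusted p = 0.0121) and Mef2c (0.76, adjusted p = 0.0141) rose in injected against control mice (limma), 3 of 18 genes where 5.41% passed. Mef2a and Mef2c encode calcium-regulated transcription factors that act on the Nr4a1 promoter in T cells, and Mef2c was named after its values were seen. The mean of the thalamic markers was higher in the same mice (-0.01 to 0.38 in injected mice, -0.65 and -0.50 in controls). Not every marker followed. Slc17a6 was lower on MPTP mouse 1 and non-acupoint mouse 1 (10.97 and 11.07) than in controls (11.23 and 11.16). Rgs16 in MPTP mouse 1 and Zic4 in MPTP mouse 2 lay between the controls. The part of the thalamic markers in the Camk2a, Mef2a and Mef2c rises was not tested. Creb1, the CRE-binding factor gene, had the smallest p in non-acupoint against MPTP (0.43 ± 0.17, SE, adjusted p = 1.00, limma). Mrtfa (-0.41) and Crtc1 (-0.49) had it in acupoint against MPTP, and Ppp3ca (0.33) in acupoint against non-acupoint mice.

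Genes of phosphatases and other restrainers of the early response were all 12 tested, and 0 passed over 8 arrays (limma), with 4 at an unadjusted p under 0.05 in acupoint against MPTP, all higher (1.37% of all tested probe sets in either direction), and 3 in non-acupoint against MPTP, all higher (1.56%). In MPTP against control 2 did so, both lower (5.29%), in injected against control 1, higher (7.07%), and in acupoint against non-acupoint 0 (1.89%). The same MPTP mice enter all these counts but the last. Dusp1, a nuclear MAP kinase phosphatase gene that is itself induced by activity, stood at 8.91 and 9.28 in acupoint mice, 9.14 and 9.31 in non-acupoint mice, 8.62 and 8.64 in MPTP mice, and 8.65 and 8.57 in control mice. All 4 needled mice lay above all 4 unneedled mice in Dusp1, and also in Dusp6 and Nab1, 3 of 12 genes where 0.944% of tested probe sets did so, and 0 of 12 lay below (0.906%). The list was chosen with earlier results of these data known, and Dusp6 and Nab1 were named after their values were seen. These counts therefore describe the mice and test nothing. Dusp4 stood at 7.09 and 7.22 in acupoint mice, 6.91 and 7.09 in non-acupoint mice, 6.31 and 6.57 in MPTP mice, and 7.18 and 7.09 in control mice. Its MPTP level was the lowest of the groups without overlap, as that of Fos and Arc was against control and acupoint mice. Of all tested probe sets 20.4% lay wholly lower in MPTP against control. Wholly higher were 14.5% in acupoint against MPTP and 5.67% in non-acupoint against MPTP. Spry4, a Sprouty inhibitor gene of the same cascade, had the next smallest p in both MPTP against control and acupoint against MPTP (-0.39 and 0.54). Ppp3r1, which encodes the regulatory subunit of calcineurin and was listed here while the catalytic subunit gene Ppp3ca was listed with the upstream genes, had the smallest p in acupoint against non-acupoint mice (0.53).

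**Figure D4:**
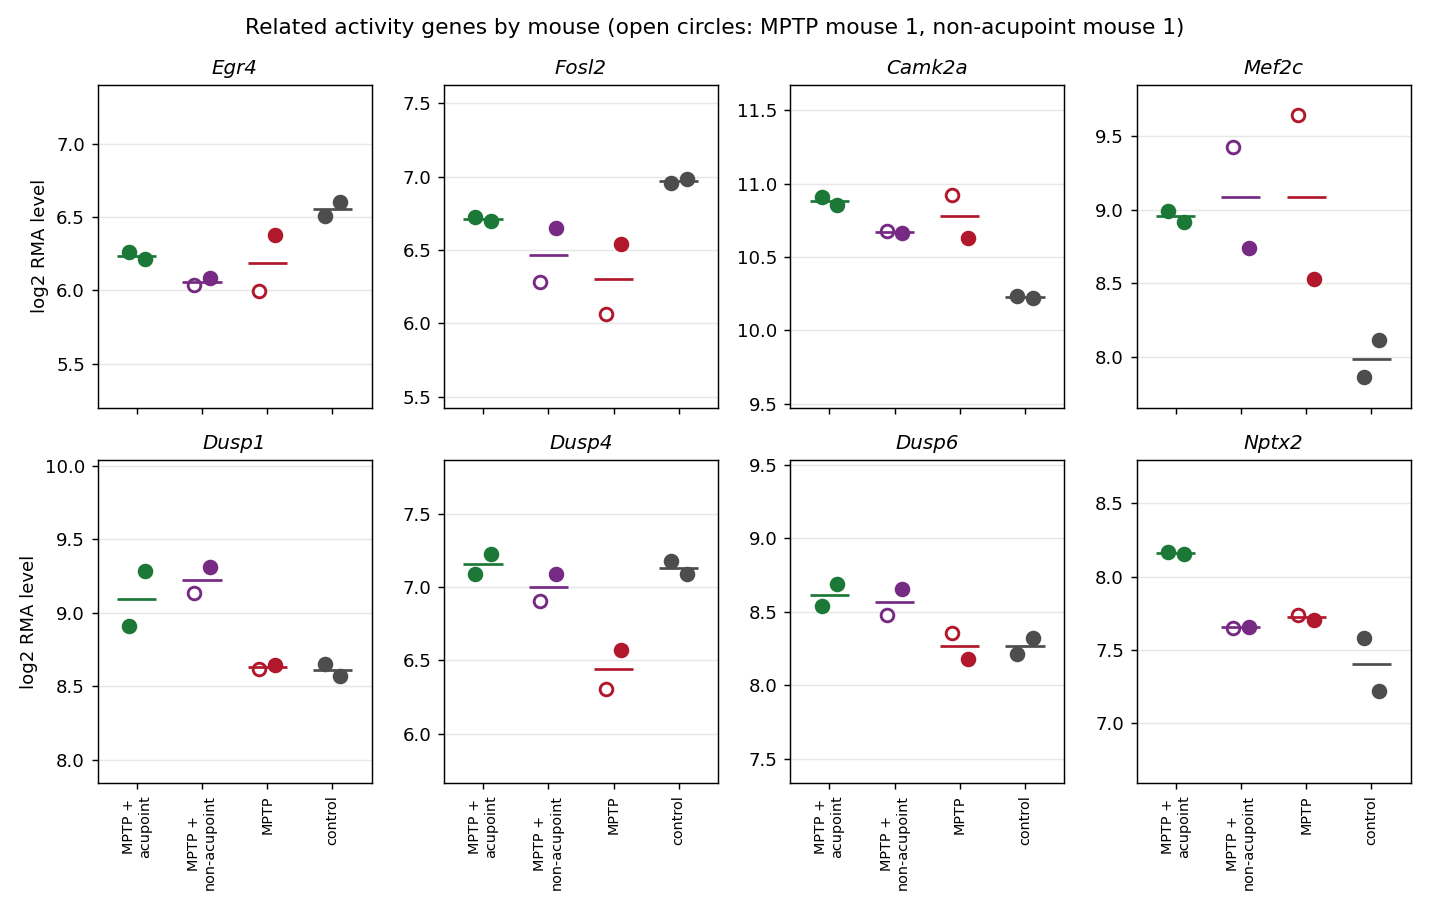
Log2 RMA level (vertical axis, of the same height in every panel) of 8 related genes in each mouse of the 4 groups, with group means as lines and non-acupoint mouse 1 and MPTP mouse 1 as open circles. Egr4 and Fosl2 were highest and Camk2a and Mef2c lowest in the 2 control mice, while Dusp1 and Dusp6 were higher in the 4 needled mice than in the 4 others.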

How the data were processed

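Thalamic RNA (300 ng per array, per the labels' protocols) of 8 mice was hybridised to Affymetrix whole-transcript arrays. The submitters' processing notes name Affymetrix Expression Console and RMA, and the values the authors deposited are log2 levels from 0.82 to 14.2. The sources used here give no versions, library files or scan batches. RMA aligns the arrays' distributions and compresses differences of dim probe sets.

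Of 35557 probe sets, 21789 had 1 symbol in the platform annotation, 1621 several and 12147 none. The dimmest 40% and unnamed probe sets were left out, which left 15791. A mean per group was fitted with limma 3.58.1 (R 4.3.3, lmFit and eBayes, 4 residual and 2.53 prior degrees of freedom) to all 8 arrays, with two-sided p-values adjusted by Benjamini-Hochberg over the 15791 probe sets and a threshold of 0.05. Exact permutation of 2 against 2 mice could not reach the threshold and was not used. Genes have 1 probe set each, that of highest mean. Non-overlap means that every mouse of one group lies above every mouse of the other.

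The genes, lists, comparisons and alternatives were chosen with earlier results of these data known. In the related lists the 2 genes of smallest p per comparison were named, with every gene past the threshold. Dusp6, Nab1, Klf2 and Mef2c were named after their values were seen. The titles number the mice, and nothing shows that equal numbers mark shared batches. Separate animals are given by the titles.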

Additional observations from a re-analysis of the deposited data

How the results depend on the processing

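Early genes past the threshold numbered 0 in all 5 comparisons under every setting, and the smallest adjusted p of an early gene in any of them was 0.0999 (limma). With 2 mice a group, the unadjusted interval of the Npas4 change in MPTP against control over all arrays ran from -0.46 to 1.40 log2 units. The threshold is set on the adjusted p, which is stricter, so changes beyond that interval could also have been missed. The smallest detectable change was not determined. Of 506 values with another normalization, filter, variance model or choice of arrays, 23 had the other sign, and 18 of these came from the 6 arrays or a term for the 2 arrays that stand apart. The cause was not tested. Fits of only the groups compared were not run for injected against control, which uses every group, and with the dimmest 60% left out some of these genes were no longer tested.

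The median change of the 9 early genes over the 6 arrays was 0.087 in acupoint against MPTP and 0.19 in non-acupoint against MPTP. In MPTP against control, the sign turned for Junb (0.27 over 6 arrays, 0.27 with the term), Egr3 (-0.048 over 6 arrays), Npas4 (-0.083 over 6 arrays) and Ier2 (0.18 over 6 arrays, 0.19 with the term, 0.015 with cyclic loess). In acupoint against MPTP it turned for Junb (-0.25 over 6 arrays, -0.25 with the term), Npas4 (0.35 and 0.22), Nr4a1 (0.094 and 0.044) and Egr1 (0.048 over 6 arrays, 0.0009 with quantile normalization). Smaller turns were those of Ier2 in non-acupoint against MPTP (0.0042, cyclic loess), and in acupoint against non-acupoint those of Fosb (-0.018) and Arc (-0.060) over 6 arrays and Npas4 (0.053 with the term). The change of Fos, acupoint against non-acupoint, was 0.030 with quantile normalization and 0.0041 with cyclic loess. In injected against control Junb turned to 0.088 both ways.

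Leaving out each mouse in turn moved the median of the 9 genes between -0.12 and 0.15 in MPTP against control, -0.062 and 0.087 in acupoint against MPTP, 0.018 and 0.18 in non-acupoint against MPTP, -0.060 and 0.10 in acupoint against non-acupoint, and -0.064 and 0.081 in injected against control. Of 360 single values 31 changed sign. Their ranges in MPTP against control were -0.36 to 0.27 for Junb, -0.048 to 0.36 for Egr3, -0.083 to 1.03 for Npas4 and -0.22 to 0.18 for Ier2. In acupoint against MPTP they were -0.25 to 0.38 for Junb, -0.062 to 0.048 for Egr1, -0.77 to 0.35 for Npas4 and -0.22 to 0.11 for Nr4a1. In non-acupoint against MPTP they were -0.61 to 0.025 for Junb, -0.39 to 0.72 for Npas4, -0.066 to 0.24 for Nr4a1 and -0.25 to 0.19 for Ier2. In acupoint against non-acupoint they were -0.33 to 0.33 for Fos, -0.018 to 0.10 for Fosb, -0.049 to 0.095 for Egr3, -0.060 to 0.21 for Arc and -0.30 to 0.020 for Nr4a1. In injected against control they were -0.11 to 0.27 for Fosb, -0.33 to 0.081 for Junb, -0.078 to 0.059 for Egr3 and -0.0031 to 0.14 for Ier2.

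Over all tested probe sets, injected against control gave 0 calls at an adjusted p of 0.05 over 8 arrays and 855 over 6 arrays (limma), and MPTP against control 0 and 57. With mouse number as a replicate block, 0 early genes passed, the medians stayed at -0.02, -0.01, 0.09, 0.02 and -0.01, and 5 in place of 7 probe sets were called in non-acupoint against MPTP. Same-numbered mice of different groups did not deviate together throughout (correlations -0.28 to 0.82), so the numbers were not taken as pairs.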
